A study of Mus musculus with 4 samples.

Results

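The genes described are 10 structural genes of the basement membrane: the laminin chains Lama2, Lama4, Lama5, Lamb1, Lamb2 and Lamc1, the nidogens Nid1 and Nid2, and the heparan sulphate proteoglycans Hspg2 (perlecan) and Agrn (agrin). They were chosen by symbol, with earlier results of these data known, and all 10 were found among the 55405 genes of the deposited matrices. The data are UMI counts (unique transcript molecules) of single cells from ventricles of mouse hearts collected at E12.5 (embryonic day). In 2 libraries the embryos were Gata4fl/fl (labelled Gata4_KO, here KO) and in 2 they were Gata4fl/+ (labelled Gata4_het, here het). All embryos in both groups also carried Rosa26mTmG/+, a reporter that turns from red to green membrane fluorescence after recombination, and Cdh5(Pac)-CreER, and all were given tamoxifen at day 9.5. The Cdh5 promoter drives this inducible Cre in endothelial cells, endocardium included, and the het embryos carry 1 floxed allele in the same cells rather than none. Whether a library was made from 1 embryo or from several is not given in the labels, so p-values measure the spread between these libraries.

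A basement membrane is a thin sheet of matrix under endothelium, endocardium and epicardium and around each muscle cell. Laminins are secreted as trimers of an alpha, a beta and a gamma chain, and the alpha chain sets which cell surface receptors are bound. Nidogens link the laminin network to type IV collagen, while perlecan and agrin bind laminin and carry heparan sulphate chains that hold growth factors. Endothelial basement membranes are known for the alpha 4 chain and, in mature vessels, alpha 5, whereas the alpha 2 chain is known from muscle, where its loss causes muscular dystrophy.

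Genome positions are those of GRCm38 in the GENCODE M21 annotation. Lama2 (chr10:26980036-27619758, minus strand) and Lama4 (chr10:38965515-39110188, plus strand) share a chromosome, as do Hspg2 (chr4:137468769-137570630, plus) and Agrn (chr4:156165290-156197488, minus). Lama5 is at chr2:180176373-180225859 (minus), Lamb1 at chr12:31265234-31329644 (plus), Lamb2 at chr9:108479736-108490530 (plus) and Lamc1 at chr1:153218922-153332786 (minus). Nid1 is at chr13:13437551-13512269 (plus), and Nid2, at chr14:19751265-19811787 (plus), overlaps Rtraf on the other strand. Whether the authors counted reads by strand is not given in the sources used here, so reads of such overlapping genes may not be told apart.

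Promoter sequences of RefSeq (GRCm38.p6) were matched for 7 members by symbol, with 2 start sites for Agrn; Lama4, Lamc1 and Nid2 are named only. Shown 5′ to 3′ on the gene's own strand are the bases before the start of Hspg2 and Agrn, the 2 members whose levels across cell classes were most alike, and those of Lama5, whose level was highest in another class. Capitals mark the GC box GGGCGG on either strand (CCGCCC on the other), a sequence bound by Sp-family factors. The Hspg2 stretch, which ends at the GENCODE start, is chr4:137468553-137468768, that of Agrn chr4:156197489-156197738 and that of Lama5 chr2:180225860-180226109.
Hspg2: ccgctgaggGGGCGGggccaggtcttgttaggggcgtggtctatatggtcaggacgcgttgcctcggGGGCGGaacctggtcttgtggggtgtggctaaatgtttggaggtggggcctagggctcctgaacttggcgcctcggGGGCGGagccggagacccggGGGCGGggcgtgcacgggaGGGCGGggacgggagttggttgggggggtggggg
Agrn: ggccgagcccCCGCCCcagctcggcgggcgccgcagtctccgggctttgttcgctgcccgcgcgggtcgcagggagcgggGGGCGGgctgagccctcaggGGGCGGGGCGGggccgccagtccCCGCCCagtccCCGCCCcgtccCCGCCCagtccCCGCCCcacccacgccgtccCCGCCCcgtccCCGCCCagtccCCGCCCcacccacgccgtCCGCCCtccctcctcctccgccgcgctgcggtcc
Lama5: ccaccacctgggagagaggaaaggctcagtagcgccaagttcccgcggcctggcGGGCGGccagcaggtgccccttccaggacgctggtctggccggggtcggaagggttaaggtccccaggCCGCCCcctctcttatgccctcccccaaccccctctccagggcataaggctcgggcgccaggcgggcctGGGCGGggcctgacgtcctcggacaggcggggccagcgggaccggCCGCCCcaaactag
In the 250 bases before the RefSeq start, Hspg2 held 5 GC boxes, Agrn 12 at the start shown and 2 at the other, Lama5 4, Lamb1 2 and Nid1 1, counting overlapping matches. Neither Lama2 nor Lamb2 held one. The Lama2 window (chr10:27616943-27617192), however, lies inside the GENCODE gene, and the Lamb2 window (chr9:108479612-108479861) runs past the GENCODE start. At least 1 GC box stood in 6 of the 8 member windows and in 32.7% of all 32851 promoter windows of that length. The GATA hexamer AGATAA, searched on both strands together with its other forms AGATAG and TGATAA and also the form TGATAG, stood in 0 of the 8 member windows and in 26.5% of all windows. A missing match says only that these letters are not in this window.

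The libraries held 171252072 and 137890971 UMIs (KO 1 and KO 2), and 156491597 and 190207638 UMIs (het 1 and het 2). After filters and removal of doublets, 13522 and 6785 KO cells and 22474 and 9938 het cells were kept. Before doublets were removed, any pair of libraries shared 14 to 93 cell barcodes. Library het 1 stood apart, since 72.1% of its cells lay in clusters without a cell type name, against 8.29% and 4.57% in KO 1 and KO 2 and 8.10% in het 2. The targeted gene, Gata4, stood at 166 and 156 CPM (UMIs for each 1000000 UMIs of the class) in endothelial-like cells of the KO libraries, against 88.4 and 80.4 CPM in those of the het libraries, with a log2 difference of 0.92 (SE 0.13, adjusted p = 0.389, edgeR). Its transcript counts were thus not lower in the KO libraries. The labels do not say which part of the gene the floxed alleles remove, and a 3′ count does not read an upstream deletion, so this is no check of the labels. The matrices also hold 2 added features, FloxGata4 and FloxGata4_ctrl, whose sequence is not given in the sources used here; in endothelial-like cells FloxGata4 had 0 UMIs in all 4 libraries, and FloxGata4_ctrl had 64 and 33 UMIs in KO and 15 and 27 UMIs in het libraries. KO and het below are the names the labels give.

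Cells were grouped without using the members or related matrix genes, and 6 classes were named from markers. Across these classes the 10 genes fell into different orders, given as a description because the classes come from the same cells. All values are CPM, as mean ± SD over the 4 libraries, and each gene is compared only with itself across classes, because UMI counts of different genes are not on 1 scale. Erythroid-like cells are not known to make basement membrane, and their level was between 0.227 CPM (Lama2) and 5.34 CPM (Lamc1). It is a low point of comparison and no ceiling for free RNA, because erythroid markers took 63.6% and 58.7% of their UMIs in KO and 76.4% and 73.8% in het libraries.

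The 3 laminin alpha chains followed different orders across the classes, and for Lama2 no single class stood highest. Lama4, the endothelial and mesenchymal alpha chain, had 388 and 321 CPM in endothelial-like cells of KO 1 and KO 2, against 323 and 311 CPM in those of het 1 and het 2. Its mean of 336 ± 35.2 CPM there was 2.21 times that in mesenchymal-like cells (152 ± 25.7), 5.02 times that in cardiomyocyte-like cells (66.9 ± 13) and 12 times that in epicardial-like cells (28.0 ± 6.85). No 2 of these classes overlapped in their library values. Lama5, an alpha chain of epithelia, showed another order: 115 and 102 CPM in epicardial-like cells of the KO libraries, against 89.3 and 90.4 CPM in those of the het libraries. Its epicardial-like mean of 99.2 ± 12.1 CPM was 9.02 times that in cardiomyocyte-like cells (11 ± 2.19) and 31.1 times that in endothelial-like cells (3.19 ± 0.432). Lama2, the alpha chain of muscle basement membrane, stood at 23.1 ± 3.41 CPM in mesenchymal-like cells, 19.7 ± 4.11 CPM in cardiomyocyte-like cells and 14.9 ± 4.92 CPM in epicardial-like cells, and the library values of these neighbours overlapped. Endothelial-like cells had 0.884 ± 0.329 CPM of Lama2, which rests on 11 and 11 UMIs in the KO libraries and 12 and 18 UMIs in the het libraries.

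The beta and gamma chains were spread more evenly. Lamb1, the common beta chain, had 251 ± 21.9 CPM in epicardial-like, 250 ± 34.0 CPM in endothelial-like and 200 ± 27.1 CPM in mesenchymal-like cells, with overlapping library values, and 92.1 ± 16.0 CPM in cardiomyocyte-like cells, below all of them. Lamc1, the gamma chain of most laminin trimers, followed a similar order, with 221 ± 40.2 CPM in endothelial-like, 177 ± 35.0 CPM in epicardial-like, 166 ± 35.5 CPM in mesenchymal-like and 87.8 ± 11.8 CPM in cardiomyocyte-like cells. Macrophage-like cells had 28.1 ± 5.12 CPM of Lamc1, which is 5.26 times the erythroid-like level. Erythroid markers took 58.7% to 76.4% of UMIs in the erythroid-like class, which lowers its CPM and raises this ratio. The ratio is therefore no measure of expression in macrophage-like cells. Lamb2, a beta chain known from neuromuscular junctions and vessel walls, was highest in epicardial-like cells (45.6 ± 7.55 CPM), apart from mesenchymal-like (22.1 ± 4.37 CPM) and endothelial-like cells (21.2 ± 1.92 CPM), whose values overlapped.

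The nidogens, close relatives of each other, were high in different classes. Nid1 had 451 and 382 CPM in endothelial-like cells of the KO libraries, against 391 and 330 CPM in those of the het libraries. Its order ran from endothelial-like (388 ± 49.8 CPM) to mesenchymal-like (246 ± 52.4 CPM), epicardial-like (101 ± 30.4 CPM) and cardiomyocyte-like cells (11.6 ± 2.80 CPM), each apart from the next. Nid2 had 450 and 468 CPM in epicardial-like cells of the KO libraries, against 461 and 371 CPM in those of the het libraries. That mean of 437 ± 44.6 CPM was 8.15 times the endothelial-like mean (53.6 ± 19.3), and the endothelial-like, cardiomyocyte-like, mesenchymal-like and macrophage-like values overlapped from each class to the next.

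Both proteoglycans were highest in endothelial-like cells. Hspg2, which encodes perlecan, had 370 ± 48.0 CPM there, 3.22 times its epicardial-like mean (115 ± 13.4 CPM). Agrn, which encodes agrin, known for clustering acetylcholine receptors at the nerve-muscle synapse, had 164 ± 29.0 CPM there, 2 times its mesenchymal-like mean (81.9 ± 21.9 CPM). Cardiomyocyte-like cells had 43.5 ± 10.0 CPM of Hspg2 and 20.6 ± 3.71 CPM of Agrn.

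**Figure D1:**
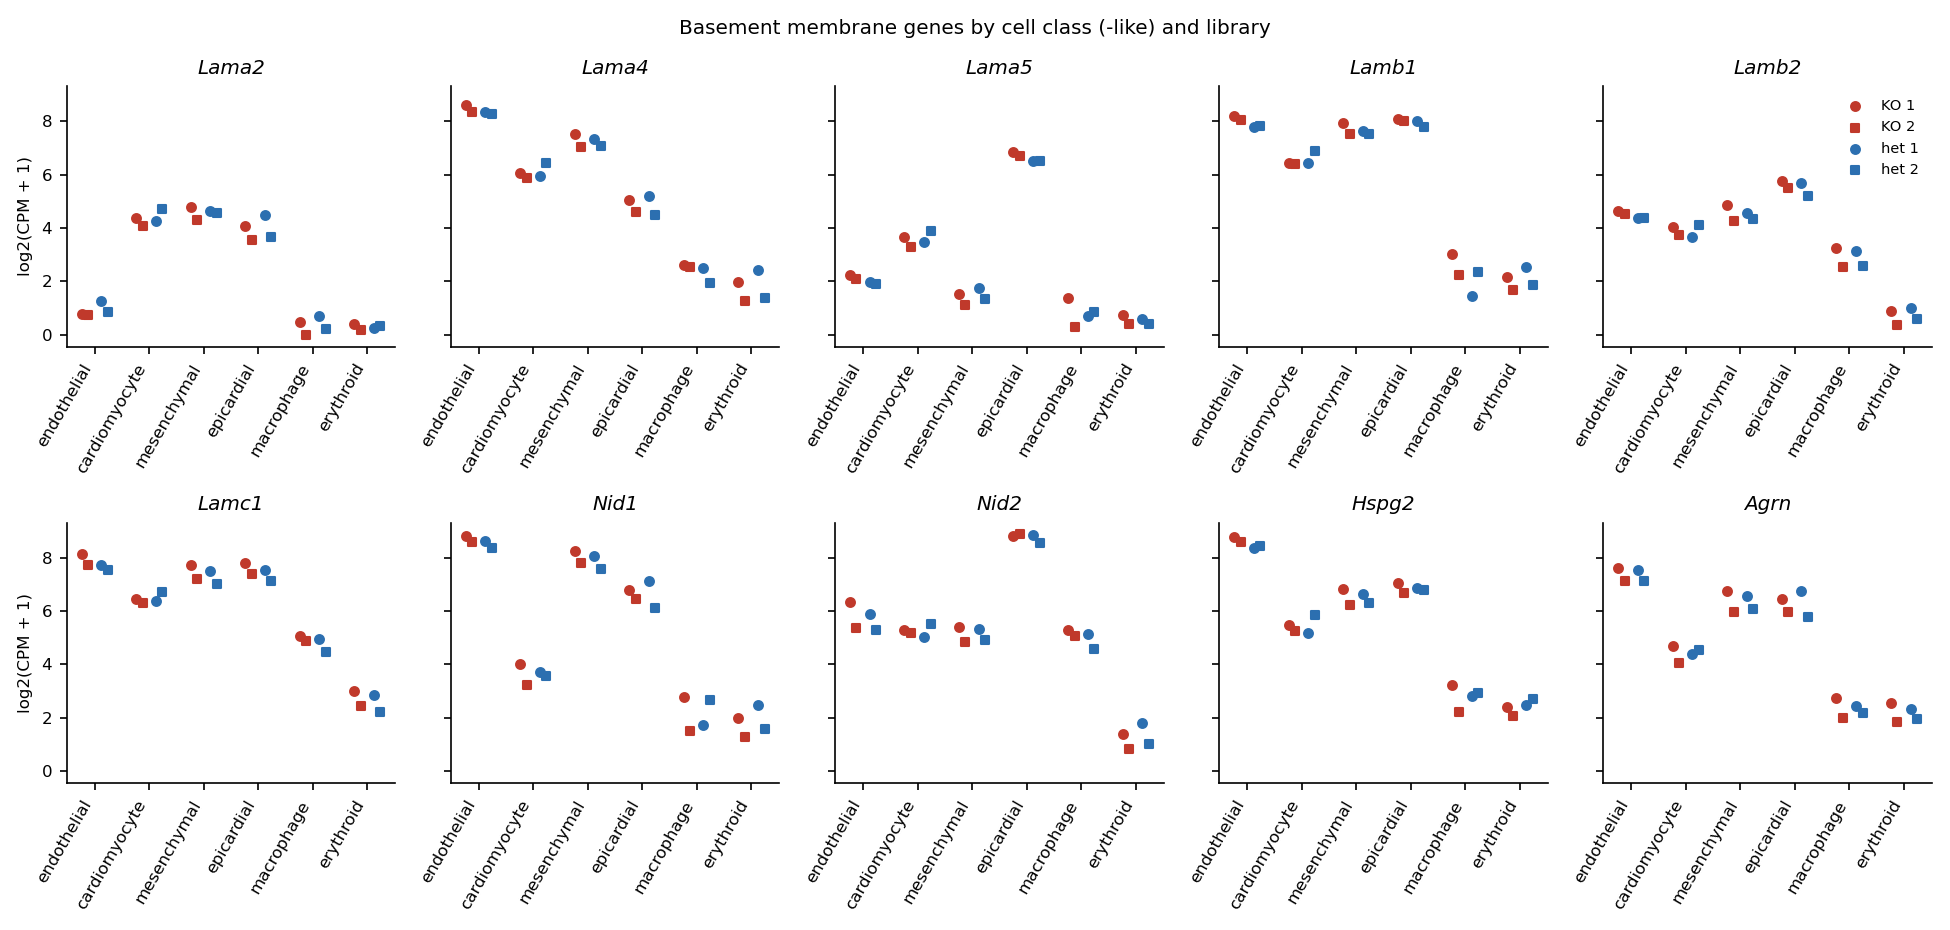
Level of each gene as log2(CPM + 1) by cell class and library; each point is 1 library, red for KO and blue for het. Lama5 and Nid2 peak in epicardial-like cells, Lama4, Nid1, Hspg2 and Agrn in endothelial-like cells, and Lama2 is lower in endothelial-like cells (0.884 CPM) than in the other 3 main classes.

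Ratios within a pair of genes showed the same divisions in every library. For each Lama5 UMI, endothelial-like cells had 103 and 97.9 Lama4 UMIs in KO 1 and KO 2, against 109 and 113 in het 1 and het 2. Epicardial-like cells had 0.276 and 0.226 in the KO libraries, against 0.400 and 0.238 in the het libraries. Cardiomyocyte-like cells lay between, at 5.65 and 6.58 in the KO libraries and 5.89 and 6.21 in the het libraries. Cluster 12, described below, was left unnamed and so is outside the endothelial-like class, though 15 of 16 endothelial markers were detected in it. Its ratio of Lama4 to Lama5 was 9.24 and 9.36 in KO and 9.54 and 7.41 in het libraries. The ratio of Nid2 to Nid1 was 4.08 and 5.39 in KO epicardial-like cells, against 3.32 and 5.44 in het ones, and 0.175 and 0.104 in KO endothelial-like cells, against 0.148 and 0.115 in het ones. Cardiomyocyte-like cells as a class had more Nid2 than Nid1 UMIs (ratios of 2.55 and 4.24 in KO libraries, 2.59 and 4.07 in het libraries). Their clusters differed: with libraries pooled, the ratio was 3.67 in cluster 6, 9.56 in cluster 27, 1.87 in cluster 10 and 1.14 in cluster 16. It was 0.853 in cluster 0 and 0.946 in cluster 2. Mesenchymal-like cells had fewer Nid2 than Nid1 UMIs (0.136 and 0.127 in KO libraries, 0.147 and 0.154 in het libraries). The ratio of Lamb2 to Lamb1 kept to a narrower range, between 0.0804 and 0.196 over these 4 classes. Since 3′ capture differs between genes, a ratio of 1 is not equal expression; the comparison is between classes.

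**Figure D2:**
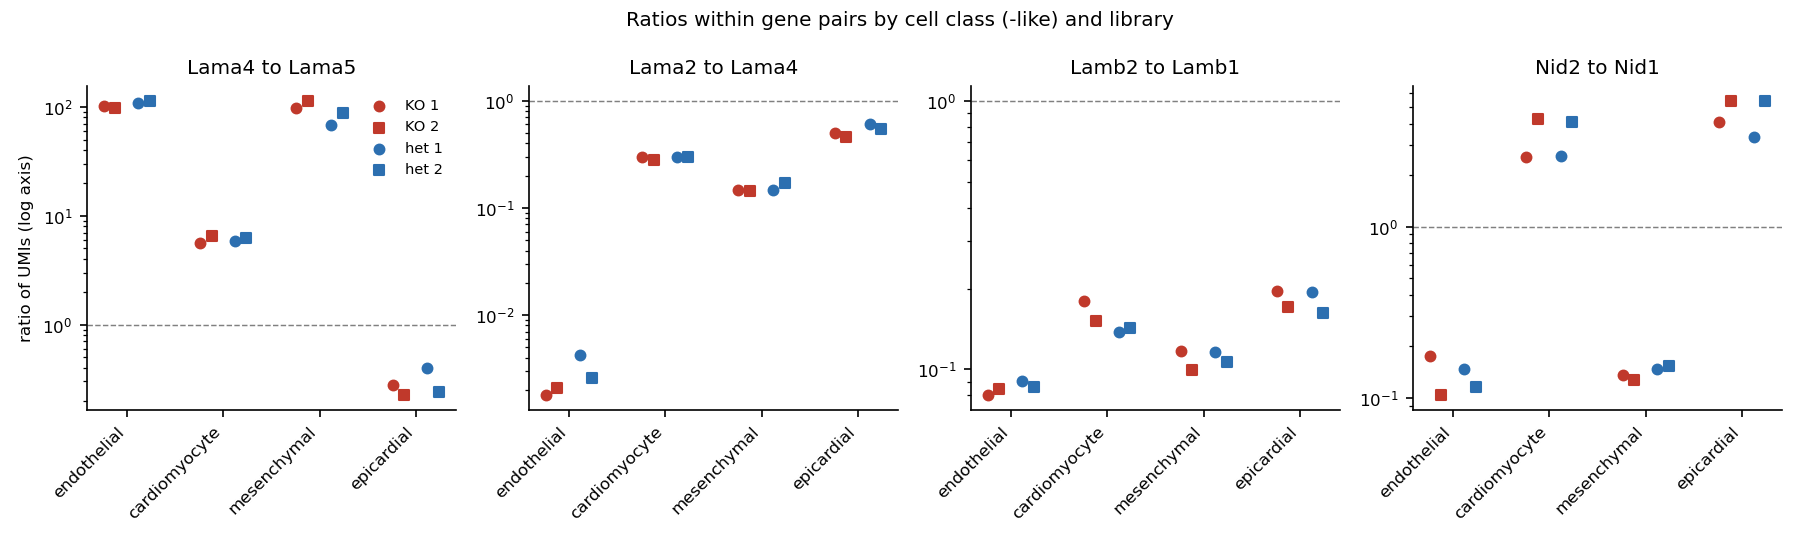
Ratio of UMIs within 4 gene pairs on log axes, by cell class and library, red for KO and blue for het, with a dashed line at a ratio of 1 where it is in range. The Lama4 to Lama5 ratio is near 100 in endothelial-like and below 1 in epicardial-like libraries, of both KO and het.

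Within classes the genes varied by cluster. In the endothelial-like class, Nid2 had 230 and 143 CPM in KO and 126 and 102 CPM in het libraries of the vascular-like cluster (cluster 22, led by Fabp4 and Kdr). In the main endocardial-like cluster (cluster 11, led by genes such as Emcn, Plvap and Npr3) it had 26.1 and 16.0 CPM in KO and 24.1 and 13.4 CPM in het libraries, so the 2 clusters did not overlap. Agrn ran the other way, with 101 ± 17.3 CPM in the vascular-like and 202 ± 49.0 CPM in the endocardial-like cluster, and so did Nid1, with 304 ± 52.1 and 451 ± 62.4 CPM. Cluster 12, led by Wnt4, Stmn2 and Aqp1 and not named because it had as many leading markers of another class, had 19.1 ± 3.17 CPM of Lama5, against 3.74 ± 0.66 CPM in the endocardial-like cluster, and 99.3 ± 5.96 CPM of Lamb1, against 247 ± 22 CPM there.

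Mesenchymal-like clusters formed 2 kinds. Clusters 5 and 18, led by Postn, Meox1 and Sox9, had 28.1 ± 5 and 29.2 ± 6.92 CPM of Lamb2, and clusters 14 and 21, led by Col14a1 and Tcf21, had 13.3 ± 4.05 and 11.9 ± 2.67 CPM. Lamb1 was 160 ± 17.5 and 148 ± 26.3 CPM in clusters 5 and 18, and 253 ± 41.9 and 276 ± 36.1 CPM in clusters 14 and 21. In the cardiomyocyte-like class, the cluster with the deepest cells (cluster 6, median 26154 UMIs) had 131 ± 13.2 CPM of Lama4 and 181 ± 19.7 CPM of Lamb1, while cluster 0 (median 2609 UMIs) had 11.4 ± 6.59 and 14.1 ± 9 CPM. Cluster 2 (median 4119 UMIs) had 6.93 ± 2.19 CPM of Lama4 and cluster 16 (median 5733 UMIs) 11.1 ± 9.77 CPM. The part of depth in these levels was not tested. Cluster 9, led by cardiomyocyte genes but unnamed because of erythroid transcripts, had 96.7 CPM of Lama4 and 136 CPM of Lamb1 at a median of 3512 UMIs, and 2069 of its 2446 cells were of het 1. Cluster 27, led by Sln, Myh6 and Shox2, had 125 ± 30.1 CPM of Lama2 and 121 ± 16.6 CPM of Nid2, against 35.3 ± 4.02 and 70.9 ± 9.84 CPM in cluster 6.

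**Figure D3:**
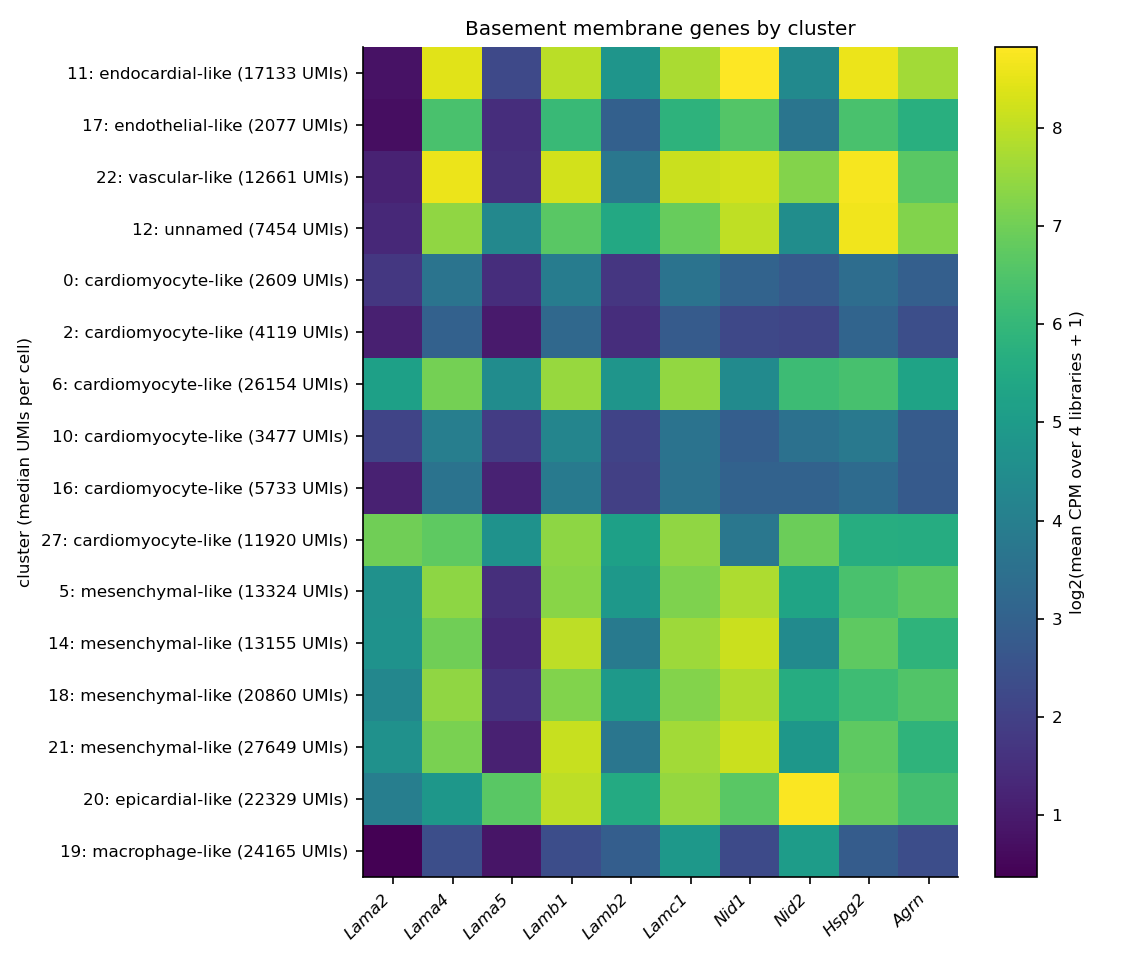
Mean level over the 4 libraries, as log2(CPM + 1), of each gene (columns) in clusters with at least 20 cells in every library (rows, with the median UMIs per cell; erythroid-like clusters and unnamed ones other than 12 are left out). Cardiomyocyte-like clusters 0, 2, 10 and 16 are darker than cluster 6 for all genes, and the vascular-like row is brighter than the endocardial-like row for Nid2.

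Over the 24 points of 6 classes and 4 libraries, the levels of Hspg2 and Agrn were the most alike of the member pairs (Pearson's r = 0.981 on log2(CPM + 1)), and those of Lama4 and Lama5 the least (r = 0.243). These points share libraries and depth, so r is a description. Among 8668 other genes of at least 20 CPM in a class, the most alike were Heg1 for both Hspg2 (r = 0.989) and Agrn (r = 0.989), Sh3gl3 for Hspg2 and Ptpn14 for Agrn. Ccnjl was among those most like Lama4, Me3 and Igsf9b most like Lama5, Ank3 and Sphkap most like Lama2, and Nfib and Smtnl2 most like Lamb1. For Lamb2 they were Nynrin and Cul7, for Lamc1 Tcaf1 and Pcnx, for Nid1 Prickle2 and Dbn1, and for Nid2 Dtx2 and Wwc2, with r between 0.965 and 0.993 over all 20 such pairs.

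The design asks whether loss of both Gata4 alleles in the endothelium changes these genes. The endothelial-like class was made up unevenly, since the vascular-like cluster held 160 of 1144 and 76 of 681 cells in KO 1 and KO 2, against 297 of 825 and 145 of 1105 cells in het 1 and het 2. Nid2, Nid1 and Agrn differ between its clusters, as given above, and the part of this make-up in the class differences was not tested. Values by subclass follow the class differences. Cluster 3, led by Cdh5, Fabp4 and Cd93, was left unnamed because of erythroid and cardiomyocyte transcripts. It held 3571 cells of het 1, against 45 of het 2 and 113 and 8 of KO 1 and KO 2. Many het 1 cells with endothelial markers are therefore outside the class, and the part of this in the differences was not tested. In endothelial-like cells (1144 and 681 cells in KO 1 and KO 2, 825 and 1105 in het 1 and het 2) none of the 10 members passed the adjusted threshold of 0.05, and neither did any of the 15103 genes tested (0% called, edgeR's quasi-likelihood test; DESeq2 called 36, no member among them). An unadjusted p under 0.05 was reached by 0 members and by 3.77% of all genes. The fitted log2 difference was above 0 for 9 of 10 members and for 50.8% of all genes, and its median was 0.234 over the members and 0.00354 over all genes. On TMM-scaled CPM, all KO libraries lay above all het libraries for 7 members, against 14.7% of all genes, and below them for 1 member, against 13% of all genes.

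Among the chains, Lamb1 had 293 and 262 CPM in KO and 219 and 227 CPM in het libraries, a log2 difference of 0.30 (SE 0.15, adjusted p = 1, edgeR). Lamc1 had 278 and 213 CPM in KO and 212 and 183 CPM in het libraries, again with a log2 difference of 0.30 (SE 0.17). In both genes every KO library lay above every het library, for Lamc1 by 213 against 212 CPM at the nearest. Lama4 differed by 0.14 (SE 0.16), Lama5 by 0.28 (SE 0.27; -0.080 with cluster 12 added) and Lamb2 by 0.20 (SE 0.15). Lama2, near its detection floor here, differed by -0.60 (SE 0.51) and was the member below 0.

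Hspg2 had 433 and 379 CPM in KO and 324 and 343 CPM in het libraries, a log2 difference of 0.27 (SE 0.16). Agrn had 194 and 140 CPM in KO and 183 and 138 CPM in het libraries, groups that overlapped, with a difference of 0.05 (SE 0.19). Nid1 differed by 0.20 (SE 0.16). Nid2 had 79.1 and 39.7 CPM in KO and 58.0 and 37.8 CPM in het libraries, a difference of 0.30 (SE 0.31) that was -0.20 without KO 1; Agrn was likewise -0.14 without KO 1 and -0.11 without het 2. Cardiomyocyte markers took 0.267% and 0.104% of the UMIs of these cells in KO and 0.499% and 0.213% in het libraries, with all 16 markers lower in KO and none at 0. Markers of mesenchymal cells took 0.0976% and 0.0817% in KO and 0.0756% and 0.0596% in het libraries, with 5 of 14 lower in KO. Those of endothelium took 0.715% and 0.744% in KO and 0.635% and 0.648% in het libraries (4 of 16 lower), and those of endocardium 0.223% and 0.197% in KO and 0.177% and 0.152% in het libraries (2 of 8 lower). The part of any of these in the differences was not tested.

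By subclass, the vascular-like cluster had the larger differences. With 160 and 76 cells in the KO and 297 and 145 cells in the het libraries, 8 members could be tested, all 8 lay above 0 (all genes 50.6%), with a median of the fitted values of 0.451 (all genes 0.00361), and 5 had an unadjusted p under 0.05, against 5.8% of the 11454 genes tested there. Adjusted p-values of the 8 were 0.697 to 0.949 (edgeR), so none passed, and 0% of genes was called. Nid2, given above by library, differed by 0.67 (SE 0.22). Lamc1 had 388 and 299 CPM in KO and 233 and 214 CPM in het libraries, a log2 difference of 0.58 (SE 0.19). Lamb1 had 382 and 341 CPM in KO and 239 and 254 CPM in het libraries, a difference of 0.52 (SE 0.18). On TMM-scaled CPM, the KO libraries all lay above the het libraries for 7 of the 8, Lamb2 being the exception, against 18.3% of all genes tested there. Hspg2 differed by 0.46 (SE 0.20) and Lama4 by 0.44 (SE 0.19). Cardiomyocyte markers took 0.267% and 0.0718% of this cluster's UMIs in KO and 0.977% and 0.366% in het libraries, and endothelial markers took 0.599% and 0.589% in KO and 0.494% and 0.518% in het libraries. Vascular markers, the list behind this cluster's name, took 0.277% and 0.212% in KO and 0.14% and 0.192% in het libraries. The part of any of these marker shares in the cluster's differences was not tested.

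In the endocardial-like clusters 9 members could be tested, 8 lay above 0 (all genes 51%) with a median of 0.182 (all genes 0.00398), and 0 had an unadjusted p under 0.05, against 4.68% of 14351 genes. The KO libraries lay above the het libraries on TMM-scaled CPM for 4 members, against 14.8% of all genes. The difference between the vascular-like and endocardial-like effects was not tested. In cluster 12, all 9 tested members were above 0 (all genes 49.1%; median 0.32, all genes -0.00538), and Lama4, Hspg2 and Nid2 had an unadjusted p under 0.05, against 4.24% of 13056 genes, with adjusted p = 1 for each (edgeR). There Lama4 had 211 and 185 CPM in KO and 145 and 137 CPM in het libraries, Hspg2 had 485 and 426 CPM in KO and 322 and 346 CPM in het libraries, and Nid2 had 23.9 and 29.6 CPM in KO and 19.8 and 13.7 CPM in het libraries. On TMM-scaled CPM, 5 of the 9 members, these 3 among them, had all KO libraries above the het libraries, against 15.1% of all genes. In this cluster cardiomyocyte markers took 0.187% and 0.203% of UMIs in KO and 1.02% and 0.203% in het libraries, endothelial markers 0.615% and 0.608% in KO and 0.479% and 0.568% in het libraries, and neural or glial markers 0.0308% and 0.0396% in KO and 0.0167% and 0.0278% in het libraries. Their part was not tested.

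**Figure D4:**
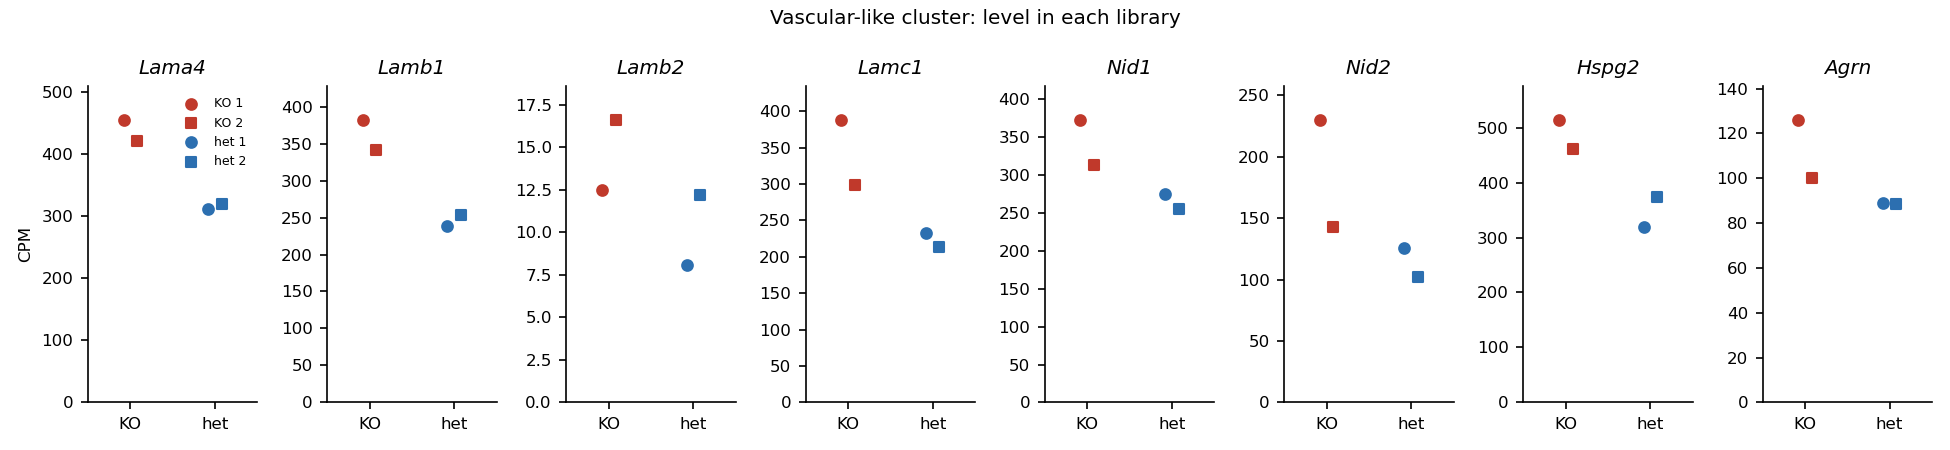
Level in CPM of the 8 members that could be tested in the vascular-like cluster, 1 point per library, KO left of het. On this unscaled axis KO points lie above het points, narrowly for Lamb2, which overlaps after TMM scaling (7 of 8 then apart, against 18.3% of all genes).

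In the other classes tested, 0 of 10 members had an unadjusted p under 0.05 in any of the 3. In cardiomyocyte-like cells 3 were above and 7 below 0 (all genes 48% above; median log2 difference -0.123), from -0.24 (Lama2, SE 0.20) to 0.07 (Nid1, SE 0.24), against 1.13% of 16323 genes with an unadjusted p under 0.05. The direction of each of the 10 reversed when 1 library was left out, as for Lama2 (-0.43 to 0.012) and Nid1 (-0.34 to 0.39), and so did that of 8 members in mesenchymal-like and 5 in epicardial-like cells. Cluster 6, described above, held 761 of 6640 and 351 of 3539 cardiomyocyte-like cells in KO 1 and KO 2. It held 397 of 3109 and 1095 of 4016 in het 1 and het 2. Within it the KO mean lay above the het mean for each of the 10 members, on CPM without TMM scaling. The share of all genes that did so was not computed, so this count is no result about the members. Lamb1 had 184 against 178 CPM, with overlapping libraries, and Nid2 had 77.7 against 64.2 CPM. KO against het was not tested within cluster 6, nor was the part of this make-up in the class differences. In mesenchymal-like cells 8 were above 0 (all genes 50.1%; median 0.073), from -0.35 (Lama5, SE 0.39) to 0.20 (Nid1, SE 0.20), against 1.03% of 16912 genes. The epicardial-like class held 325 and 147 cells in KO 1 and KO 2, and 80 and 194 in het 1 and het 2. Cluster 7, led by Upk3b and Krt7, was left unnamed because of erythroid and cardiomyocyte transcripts. It held 2397 cells of het 1, against 30 of het 2 and 84 and 14 of KO 1 and KO 2, and its part was not tested. In epicardial-like cells 7 members were above 0 (all genes 49%, median 0.119), against 1.65% of 13916 genes with an unadjusted p under 0.05. Lama5, the alpha chain highest there, differed by 0.27 (SE 0.18). On TMM-scaled CPM its KO libraries lay above its het libraries, as did those of Lamb1 and Nid2, which makes 3 members, against 12.3% of all genes, and 0 members lay below, against 11.1%. No member was apart either way in cardiomyocyte-like cells (9.1% of all genes higher and 11.1% lower) or mesenchymal-like cells (9.59% higher and 9.6% lower). In each class 0% of genes was called by edgeR at an adjusted p under 0.05; DESeq2 called 0, 1 and 3 genes in cardiomyocyte-like, mesenchymal-like and epicardial-like cells.

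Tested within libraries, the endothelial-like effect minus the cardiomyocyte-like effect was above 0 for 9 of 10 members (median 0.226). The share of all genes above 0 was not computed for this difference. The shares of 50.8% in the endothelial-like and 48% in the cardiomyocyte-like test alone do not stand in for it. The part of the cluster make-up of either class, given above, was not tested. Of the members 1, Lamb1, had an unadjusted p under 0.05, against 4.84% of 17214 genes. Its difference of effects was 0.42 (SE 0.19, adjusted p = 0.961, edgeR with the library as a block). The test called 1 gene (0.00581%), Neil2, named here after its value was seen and no member.

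**Figure D5:**
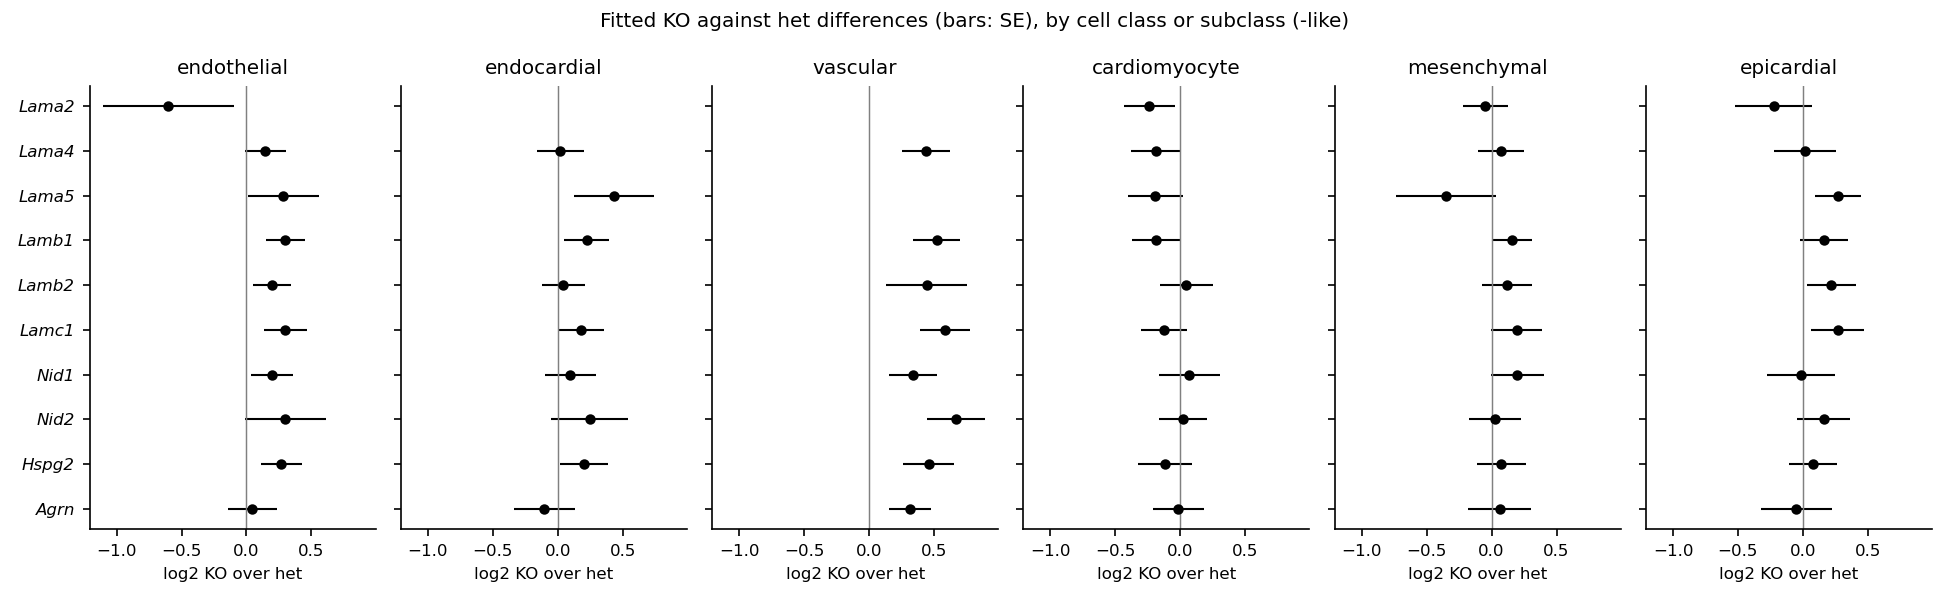
Fitted log2 difference, KO over het, of each gene with bars of 1 SE, by class and, for endothelial-like cells, by subclass; a gene with no point did not pass the filter. All 8 points of the vascular-like panel lie right of 0, and no member passed the adjusted threshold in any panel.

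The genes that work with these members were described in endothelial-like cells, and none passed the adjusted threshold. Their counts stand beside 50.8% of all genes above 0, with a median of 0.00354, and 3.77% with an unadjusted p under 0.05. Of 6 tested basement membrane collagens 5 were above 0 (median log2 difference 0.385), and 2 had an unadjusted p under 0.05. Col4a6, a type IV collagen chain, had 6.42 and 4.67 CPM in KO and 1.94 and 2.13 CPM in het libraries (log2 difference 1.40, SE 0.28, adjusted p = 0.616, edgeR). Col4a5, its usual partner chain, had 74.3 and 61.2 CPM in KO and 52.5 and 42.0 CPM in het libraries (0.51, SE 0.15). Col18a1 and Col4a2 differed by 0.40 (SE 0.17) and 0.37 (SE 0.18). Of 26 assembly enzymes 20 were above 0 (median 0.122) and 4 had an unadjusted p under 0.05: the collagen prolyl and lysyl hydroxylases P4ha2 (0.58), Plod2 (0.50), Plod1 (0.42) and P4ha1 (0.37).

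Laminin receptors were mixed, with 6 of 16 above 0 (median -0.0915). Bcam, a receptor for the alpha 5 chain, had 19.0 and 16.4 CPM in KO and 24.5 and 24.1 CPM in het libraries, a log2 difference of -0.48 (SE 0.15), and Itga1, a collagen and laminin integrin, had 110 and 140 CPM in KO and 72.7 and 94.5 CPM in het libraries, a difference of 0.57 (SE 0.23). Itga3, an integrin chain with under 4 CPM in every library (-1.55), and Sdc4 (-0.42) also had unadjusted p under 0.05. Of 12 other basement membrane glycoproteins 7 were above 0 (median 0.158), led by Fn1 (0.43, SE 0.22), Fbln1, Frem1 and Ltbp3. Of 18 proteases and inhibitors 8 were above 0 (median -0.0335), with Adamts5, a proteoglycan-cutting protease, at -0.53 (SE 0.18), Mmp2, a gelatinase, at 0.38 (SE 0.14), and Hpse and Sulf1 at 0.94 and 0.52. Of 4 other laminin and netrin chains 2 were above 0, Lama1 (0.45) and Ntn4 (0.33), and 2 below, among them Ntn1 (-0.18).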

How the data were processed

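The deposited matrices held UMI counts per gene and cell barcode, per the file headers, which name Cell Ranger 6.0.1; the submitters' processing notes add the build mm10 and Seurat. The labels name different kits in different fields (single cell 3′ v2, and Next GEM). Cells needed at least 500 genes and under 20% mitochondrial UMIs. Doublets were called with Scrublet (expected rate 0.1, scanpy 1.11.5); its threshold failed in het 1 and KO 2, where the median of the others, 0.323, was set after the scores were seen. The 2000 variable genes left out the members and the other listed matrix genes (104 together), Gata4, reporter, sex-linked and globin genes; 30 components and 20 neighbours gave 41 Leiden clusters (igraph 0.11.9, resolution 1). Of these, 23 were named from markers (mean log2 fold of at least 1, at least 3 detected). Clusters of other classes with 1% or more cardiomyocyte or 5% or more erythroid marker UMIs were left unnamed, limits set after the clusters were seen.

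UMI counts were summed per library and class and tested, 2 libraries against 2, in edgeR 4.0.16 by its quasi-likelihood test (R 4.3.3; filterByExpr with minimum count 10 and total 15, TMM, Benjamini-Hochberg at 0.05); DESeq2 1.42.0 was an alternative. The test was tried on simulated data. Named beside the members were, per member, the 2 genes most alike in level (predicted, ribosomal, mitochondrial and globin genes left out) and, per list, up to 4 genes of lowest p in endothelial-like cells; 2 genes that this rule named are not reported here. The members and lists were chosen with earlier results of these data known.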

Additional observations from a re-analysis of the deposited data

How the results depend on the processing

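Of 565 member differences recomputed under an alternative, 509 kept their direction and 56 reversed; none had an adjusted p under 0.05, the lowest being 0.077 in endothelial-like cells. Counts of called genes moved more, and the cause was not tested. In endothelial-like cells (0 called) DESeq2 gave 36, no filter 231 and leaving out 1 library 103 to 300; in cardiomyocyte-like cells (0) no filter gave 30 and leaving out 1 library 1 to 27; in mesenchymal-like cells (0) DESeq2 gave 1, no filter 37 and leaving out 1 library 3 to 46; in epicardial-like cells (0) DESeq2 gave 3, no filter 19 and leaving out 1 library 7 to 66. The endothelial-like minus cardiomyocyte-like test (1) gave 5 with DESeq2, 145 with no filter, 3 with doublets kept, 2 with cells of at least 1000 genes and 0 to 133 without 1 library.

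With a replicate block, 482, 22, 24 and 29 genes were called in endothelial-like, cardiomyocyte-like, mesenchymal-like and epicardial-like cells, no member among them. Same-numbered libraries deviated together (r = 0.688, 0.305, 0.624 and 0.494 in that order), but with 2 pairs and no such label they share only a number.

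Log2 differences that reversed when 1 library was left out are given by their range. In endothelial-like cells Agrn ran from -0.14 to 0.21 and Nid2 from -0.20 to 0.67. In cardiomyocyte-like cells these were Lamc1 (-0.26 to 0.041), Lama5 (-0.36 to 0.029), Hspg2 (-0.40 to 0.26), Agrn (-0.29 to 0.22), Lamb2 (-0.15 to 0.31), Lama2 (-0.43 to 0.012), Lama4 (-0.39 to 0.071), Lamb1 (-0.37 to 0.044), Nid1 (-0.34 to 0.39), Nid2 (-0.17 to 0.27) and Gata4 (-0.10 to 0.12). In mesenchymal-like cells these were Lamc1 (-0.012 to 0.41), Hspg2 (-0.17 to 0.28), Agrn (-0.32 to 0.36), Lamb2 (-0.14 to 0.35), Lama2 (-0.26 to 0.14), Lama4 (-0.13 to 0.25), Nid1 (-0.013 to 0.44), Nid2 (-0.22 to 0.24) and Gata4 (-0.093 to 0.15). In epicardial-like cells these were Hspg2 (-0.065 to 0.21), Agrn (-0.44 to 0.40), Lama2 (-0.61 to 0.10), Lama4 (-0.29 to 0.28), Nid1 (-0.40 to 0.46) and Gata4 (-0.082 to 0.17). For the difference of effects these were Agrn (-0.16 to 0.21), Lamb2 (-0.10 to 0.26), Lama2 (-1.0 to 0.092), Nid1 (-0.16 to 0.42) and Nid2 (-0.30 to 0.64).

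Other reversals were these. In endothelial-like cells Lama5 (0.28) was -0.080 with cluster 12 added, and Agrn -0.10 in endocardial-like clusters and -0.025 in cells with under 0.5% cardiomyocyte markers. Without cluster 13, which is nearly all het 1, the cardiomyocyte-like values of Lamb2, Nid1 and Nid2 were -0.13, -0.11 and -0.17. Gata4 there was -0.0046 with doublets kept and -0.0055 in cells of at least 1000 genes. In epicardial-like cells Lama4 was -0.014 with DESeq2, -0.019 with the block and -0.11 with doublets kept, and Nid1 0.0089 with no filter and 0.026 with the block. For the difference of effects Lama2 was 0.0087 with doublets kept. In endothelial-like cells Gata4 passed the threshold with DESeq2, no filter, the block and without KO 1 or KO 2, but not without het 1 or het 2. The highest class was the same for 9 or 10 of 10 members in all alternatives; the exception, Lamb1, became endothelial-like (261 CPM, against 250 in epicardial-like cells without het 1). The alternatives with clusters 12, 13 or low-UMI clusters were chosen after the data were seen. Few UMIs limit Lama2 and Lama5 in endothelial-like cells.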
